A study of Mus musculus with 20 samples.

Results

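The Notch ligands, receptors and fate targets described here are 9 genes, namely the receptors Notch1 and Notch2, the ligands Dll1, Dll4, Jag1 and Jag2, the target Hes1 and the secretory fate factors Atoh1 and Gfi1. They were chosen by name among the 32991 genes of the colon RNA-seq data. Colon RNA from 20 male C57BL/6 mice gave 1 library per mouse, with 5 mice in each of 4 groups. Control mice received water by gavage for 91 days, and PZH mice received 250 mg/kg/d of PZH over the same time. PZH stands for Pien Tze Huang, a formula of Chinese traditional medicine. Model mice received water and the AOM/DSS treatment, a chemical model of colitis-associated colon cancer in which 12.5 mg/kg azoxymethane (AOM), a carcinogen, was followed by 4 cycles of 2% dextran sodium sulfate (DSS), which injures the colon lining, in drinking water for 5 days each. Model + PZH mice received AOM/DSS and the same dose of PZH. No group carried a transgene, and the age of the mice is not given in the sources used here.

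Notch signalling passes between neighbouring cells. A Delta-like (Dll) or Jagged (Jag) ligand on one cell binds a Notch receptor on the next, the receptor is cleaved, and its intracellular part enters the nucleus and acts with RBPJ on targets such as the repressor Hes1. In the intestinal crypt, Hes1 holds down Atoh1, the factor that commits a progenitor to the secretory lineage, so that cells with active Notch tend to become absorptive and cells without it secretory. Gfi1 acts after Atoh1 in goblet and Paneth cells and is also used by blood cells, Dll4 is a ligand of sprouting vessels as well as of crypt cells, and Jag2 is well known from stratified epithelia.

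The genes lie on 7 chromosomes of GRCm38, the build that is also called mm10. Notch1 (chr2:26457903-26516663, minus strand), Dll4 (chr2:119325784-119335962, plus strand) and Jag1 (chr2:137081456-137116644, minus strand) share chromosome 2. Notch2 is at chr3:98013527-98150361 (plus), Gfi1 at chr5:107716657-107726036 (minus), Atoh1 at chr6:64729125-64731245 (plus) and Jag2 at chr12:112907819-112929776 (minus). Hes1 is at chr16:30064384-30067796 (plus) and Dll1 at chr17:15367354-15376872 (minus).

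Promoters of 8 of the 9 genes, all but Hes1, were matched by symbol in the RefSeq table for GRCm38.p6. There were 10 windows in all, since Dll1 and Gfi1 each have a pair of start sites. In the 250 bases before each start, 4 motifs were searched on both strands, namely TGGGAA (bound by RBPJ), CACNAG (the N-box bound by Hes proteins), CANNTG (the E-box of helix-loop-helix factors such as Atoh1, which reads the same on both strands) and CTTTGA (bound by the TCF partners of beta-catenin). No window of these 8 genes held TGGGAA, which 21.6% of all 32851 mouse windows of this length held. The Hes1 promoter had no entry and was not searched, so nothing is known here of its motifs. The N-box was in the windows of Notch1, Notch2 and Dll4, against 36.7% of all windows. An E-box was in 5 windows, those of Jag1, Dll1 and Gfi1, against 66.2% of all windows. CTTTGA occurred at 2 places in the Atoh1 window and in no other, against 13.8% of all windows. The 4 windows below are shown because the first 2 belong to the receptors that rose together in Model mice, the third holds the remaining N-box, and the fourth is that of the secretory fate switch. Capitals mark the N-box in the first 3 and CTTTGA in the last. They cover chr2:26503823-26504072 (minus strand), chr3:98013288-98013537 (plus), chr2:119325534-119325783 (plus) and chr6:64728875-64729124 (plus), each 5′ to 3′ towards the start. The capitals of Notch1 and Dll4 begin 108 and 75 bases before the start, those of Notch2, on the opposite strand, 247 bases before it, and those of Atoh1 148 and 110 bases before it. No E-box or TGGGAA lies in these 4 windows, so the marked motifs overlap no other motif searched.
Notch1: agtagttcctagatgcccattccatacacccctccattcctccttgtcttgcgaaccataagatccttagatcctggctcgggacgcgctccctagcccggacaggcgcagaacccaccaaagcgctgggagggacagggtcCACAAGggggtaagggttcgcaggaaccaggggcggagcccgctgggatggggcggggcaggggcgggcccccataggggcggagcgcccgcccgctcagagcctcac
Notch2: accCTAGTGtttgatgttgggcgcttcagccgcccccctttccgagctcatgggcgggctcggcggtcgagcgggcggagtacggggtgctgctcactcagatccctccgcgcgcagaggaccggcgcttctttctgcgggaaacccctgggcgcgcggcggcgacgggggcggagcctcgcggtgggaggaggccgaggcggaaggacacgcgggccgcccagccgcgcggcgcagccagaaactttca
Dll4: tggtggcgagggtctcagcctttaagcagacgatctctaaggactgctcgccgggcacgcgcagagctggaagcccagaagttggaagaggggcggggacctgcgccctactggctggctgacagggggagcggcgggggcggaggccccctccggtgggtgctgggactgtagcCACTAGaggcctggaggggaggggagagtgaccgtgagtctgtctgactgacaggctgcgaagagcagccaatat
Atoh1: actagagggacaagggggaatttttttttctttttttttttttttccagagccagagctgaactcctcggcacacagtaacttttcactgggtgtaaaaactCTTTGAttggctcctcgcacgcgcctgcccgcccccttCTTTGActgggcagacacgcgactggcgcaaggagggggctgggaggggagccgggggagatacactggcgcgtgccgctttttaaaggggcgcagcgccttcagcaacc

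Values are FPKM (fragments scaled by transcript length and library size), which the authors computed per transcript with StringTie and which were summed here per gene. FPKM are per length, which lets genes be compared roughly. The sums leave out transcripts assembled from the reads without a gene name, which held 12.1 to 14.8% of FPKM. How much each gene lost by this is not known. The files hold no counts. Read from the smallest step of the values, the depth was 15.3 to 19.4 M fragments per mouse, with no group standing apart. Differences are given on the log2(FPKM + 1) scale, which understates the change of low genes, and were tested with limma over all genes that reached 0.5 FPKM in 5 or more of the 10 mice compared. A gene was called when its Benjamini-Hochberg adjusted P over all these genes was under 0.05. The labels give colon as the tissue although their extraction text names the abdominal aorta. The 10 colon epithelium markers summed to 3138 to 7995 FPKM in the 20 mice, although Epcam was listed at 0 in all 5 Control mice. In 1 mouse of the Model + PZH group, mouse 35, expression over all genes correlated best with Model mice (r = 0.98 with Model mouse 44). Control mice 17 and 50 held 527 and 377 summed FPKM of 10 squamous epithelium markers, which was above the 0.966 to 2.18 of the other 3 Control mice and the 0.818 to 67.8 of the other groups. Whether mouse 35 carries the right label, or whether another part of the colon was taken from Control mice 17 and 50, was not tested. Values without these mice are given beside several of the results that use them.

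Within Control colon, Hes1 had the highest level (48.3 ± 7.26 FPKM, SD, n = 5), followed by Atoh1 (24.4 ± 9.997). Dll1 (6.62 ± 1.62), Notch1 (5.37 ± 1.67), Jag1 (3.52 ± 0.892), Notch2 (3.38 ± 0.798), Dll4 (2.82 ± 1.09), Jag2 (2.26 ± 0.492) and Gfi1 (2.04 ± 1.94) came next. Apart from Notch1 and Jag1, neighbours in this order from Dll1 downwards differed by less than the larger of their SDs, whereas Hes1 stood above Atoh1 in every Control mouse. One transcript carried most of each gene, from 61.3% of the Control FPKM for Jag2 (a transcript of 5106 bases) and 69.5% for Dll1 to 97.6% or more for Notch2, Dll4, Atoh1 and Gfi1. In bulk tissue, fewer cells of a type and less RNA per cell cannot be told apart in any of these levels.

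**Figure D1:**
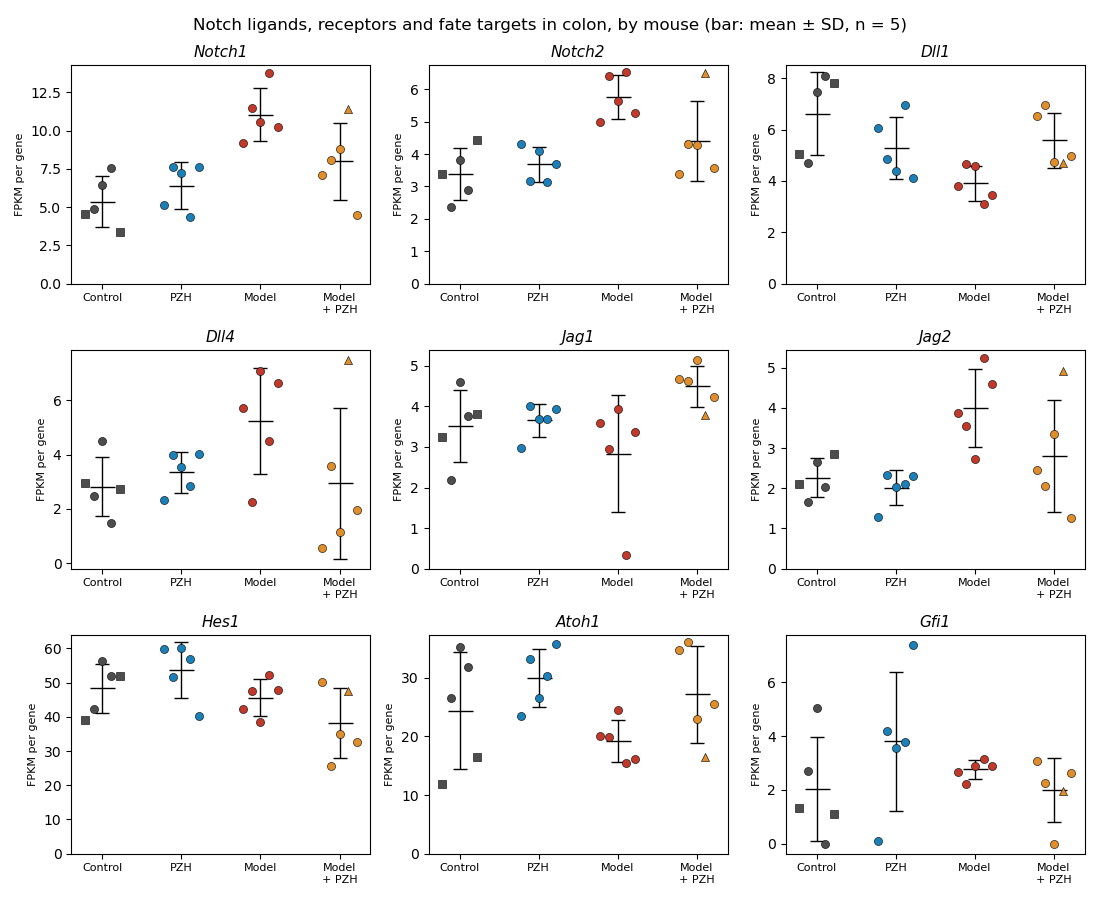
FPKM per gene (y axis, linear) of the 9 genes in every mouse of the 4 groups (x axis), with the mean and SD of 5 mice as horizontal line and bars. Triangles mark Model + PZH mouse 35 and squares Control mice 17 and 50, which had high squamous markers. Notch1, Notch2 and Dll1 of Model mice lie apart from Control mice, and the triangle lies near the Model mice for Notch1, Notch2, Dll4, Jag2 and Atoh1.

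The first comparison asked how AOM/DSS alone changed these genes. In Model colon both receptors and the ligand Jag2 rose and the ligand Dll1 fell, whereas the target Hes1 and the fate factors Atoh1 and Gfi1 did not pass the test. Of the 9 genes 4 were called, 3 higher and 1 lower, where 23.6% of all 15812 genes tested were called. The median log2 difference of the 9 genes was 0.55, against 0.09 over all genes. Over all genes, 2596 were called higher and 1143 lower. With scaling by median ratios the numbers were 1936 and 1587 and the median of all genes was 0.0069. The signs and calls of the 4 genes were the same with that scaling.

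Notch1, the main receptor of the crypt together with Notch2, was at 3.37, 4.53, 4.86, 6.48 and 7.59 FPKM in Control mice. In Model mice it was at 9.20, 10.2, 10.55, 11.5 and 13.7 FPKM. All 5 Model mice were above all 5 Control mice. The mean was 2.06 times that of Control mice and the log2 difference was 0.95 ± 0.19 (SE, adjusted P = 0.00481). Notch2 had 2.38, 2.90, 3.39, 3.81 and 4.44 FPKM in Control mice and 5.00, 5.26, 5.63, 6.40 and 6.53 FPKM in Model mice. Again the groups did not overlap, with a ratio of means of 1.70 and a log2 difference of 0.64 ± 0.15 (adjusted P = 0.0114). Both receptors were called in all 10 comparisons that left out a single mouse. Without Control mice 17 and 50, the log2 differences were 0.73 for Notch1 (adjusted P = 0.0222) and 0.76 for Notch2 (adjusted P = 0.0146).

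Dll1, the ligand of early secretory progenitors, went the other way. It was at 4.69, 5.05, 7.48, 7.80 and 8.10 FPKM in Control mice and at 3.10, 3.44, 3.81, 4.59 and 4.64 FPKM in Model mice. The groups did not overlap, although the lowest Control mouse and the highest Model mouse were close. Dll1 fell to 0.591 of the Control mean, with a log2 difference of -0.62 ± 0.17 (adjusted P = 0.0266). Groups that did not overlap were found for Notch1, Notch2 and Dll1, and for 18.4% of all genes tested. The Dll1 call was lost, with the direction kept, without Control mouse 41, 48 or 50 or Model mouse 23, 44 or 52 (adjusted P 0.0549 to 0.0683). It was also lost with the most abundant transcript in place of the sum (adjusted P = 0.0592) and without both Control mice 17 and 50 (adjusted P = 0.0560).

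Jag2 was at 1.65, 2.03, 2.12, 2.66 and 2.86 FPKM in Control mice and at 2.73, 3.54, 3.86, 4.598 and 5.23 FPKM in Model mice. Only the lowest Model mouse was below the highest Control mouse. The ratio of means was 1.76 and the log2 difference 0.60 ± 0.17 (adjusted P = 0.0245). Without Control mouse 48, Model mouse 44 or Model mouse 52 it was no longer called (adjusted P 0.0546 to 0.0625). Markers of squamous epithelium, which is known to use Jag2, were at 13.7 to 38.5 summed FPKM in Model mice, and their Control values were led by the 2 mice named above. With those left out, Jag2 was still called (log2 difference 0.67, adjusted P = 0.0484). In that fit every Model mouse also had more squamous markers than the remaining Control mice (0.966 to 2.18 summed FPKM). The part of this in the Jag2 values was not tested.

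Dll4 was at 1.47, 2.49, 2.74, 2.94 and 4.49 FPKM in Control mice and at 2.25, 4.50, 5.71, 6.64 and 7.09 FPKM in Model mice. All but mouse 30, the lowest, were above every Control mouse. The log2 difference was 0.68 (95% interval 0.07 to 1.29, adjusted P = 0.0994). Without Model mouse 30 it was 0.90 and was called (adjusted P = 0.0197). In these mice, 3 of 9 endothelial markers were called higher and none lower, where 23.6% of all genes tested were called. Their sum was 50.6 to 58.6 FPKM in Model against 34.9 to 54.8 in Control mice. From Control to Model mice the means of Pecam1 (5.25 and 4.14 FPKM), Cldn5 (7.04 and 5.28) and Tek (3.08 and 2.74) fell. Those of the other endothelial markers rose. The part of these markers in the Dll4 values was not tested. The 4 called genes and Dll4 had an unadjusted P under 0.05, where 36% of all genes had one.

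Jag1 showed no difference that passed the test. It was at 2.17, 3.24, 3.76, 3.80 and 4.59 FPKM in Control mice and at 0.341, 2.95, 3.36, 3.58 and 3.94 FPKM in Model mice, so that mouse 44 alone lay outside the Control range. The log2 difference of -0.34 (95% interval -1.09 to 0.40, adjusted P = 0.509) became 0.0016 without that mouse. Fragments that StringTie gave to transcripts assembled from the reads carry no gene name and are missing from these sums, and their part in such near-zero values was not tested.

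Hes1, the best known direct target in the crypt, had almost the same level in both groups. Control mice had 39.2, 42.1, 51.9, 52.02 and 56.2 FPKM and Model mice 38.4, 42.2, 47.5, 47.8 and 52.3 FPKM. The log2 difference was -0.08, with a 95% interval of -0.35 to 0.20 (adjusted P = 0.714). Its upper end lies below the lower ends of the intervals of Notch1 (0.54) and Notch2 (0.31).

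Atoh1 was at 11.9, 16.4, 26.5, 31.9 and 35.3 FPKM in Control mice and at 15.5, 16.2, 19.95, 19.9998 and 24.5 FPKM in Model mice. The Control values were split, since the 2 lowest were those of mice 17 and 50 with the squamous markers and the other 3 were above every Model mouse. With all mice the log2 difference was -0.24 (95% interval -0.85 to 0.36, adjusted P = 0.570). Without these 2 mice, a choice made after their values were seen, it was -0.68 (95% interval -1.06 to -0.30) and was called (adjusted P = 0.0256). The number of called genes stayed at 4 of 9, with Atoh1 in and Dll1 out, where 17.8% of all genes were called.

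Gfi1 was listed at 0 in Control mouse 48 and at 1.11, 1.35, 2.71 and 5.04 FPKM in the other Control mice. In Model mice it was at 2.22, 2.67, 2.88, 2.89 and 3.16 FPKM. The Model range lay inside the Control range, and the log2 difference was 0.55 (95% interval -0.31 to 1.40, adjusted P = 0.348).

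**Figure D2:**
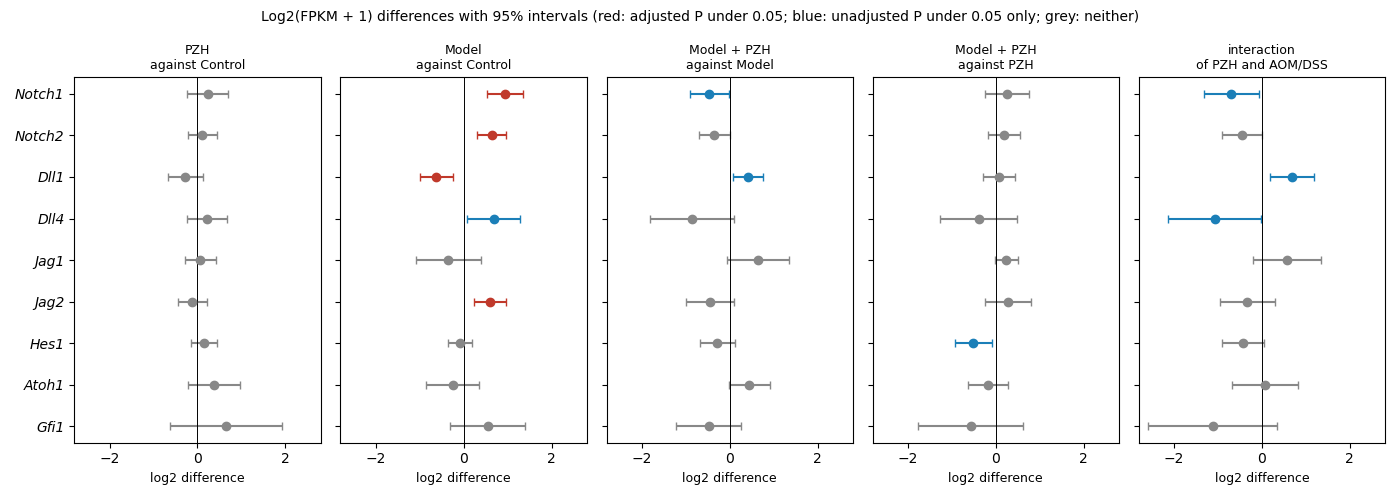
Log2(FPKM + 1) differences (x axis) of the 9 genes (y axis) with 95% intervals in the 4 comparisons and the interaction. Red points, with an adjusted P under 0.05, occur for Notch1, Notch2, Dll1 and Jag2 in Model against Control and nowhere else. Blue points had an unadjusted P under 0.05 alone.

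In the same comparison, 68 further genes of the pathway were examined in 6 lists. Of the 55 tested, 13 were called higher and 3 lower, again beside 23.6% of all genes, and the median log2 difference was 0.22. Among the genes not tested, the targets Hes5 and Olfm4 reached at most 0.224 and 0.142 FPKM in any group mean. Neurog3, the factor of endocrine progenitors, was also left out by the filter, since 3 Control mice and 1 Model mouse reached 0.5 FPKM. Its means were 1.16 FPKM in Control and 0.367 FPKM in Model mice. Without Control mice 17 and 50 its Control mean was 1.73 FPKM.

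Among the other ligands and receptors, Dlk1, a Delta-like protein that lacks the part by which Delta ligands bind Notch in full, was at no more than 0.340 FPKM in any Control mouse and at 0.8996 to 7.27 FPKM in Model mice. It passed the filter through the Model mice alone, so its test adds nothing, although it is among the 13 genes called higher. Notch4, an endothelial receptor, rose from 3.06 to 5.00 FPKM (0.57 ± 0.14, adjusted P = 0.0132). Among the genes of receptor processing, 3 of 14 were called, all higher. Adam10, the protease that makes the first ligand-dependent cut, rose from 27.3 to 58.1 FPKM (1.07 ± 0.14, adjusted P = 4.42e-04). Ncstn, a gamma-secretase subunit, rose from 51.1 to 75.9 FPKM and the sugar transferase Lfng, which tunes ligand preference, from 9.85 to 18.3 FPKM. In each of these 3 genes all Model mice were above all Control mice.

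The list of ligand endocytosis and turnover held 13 genes, 3 called higher and 1 lower. Neurl1a and Neurl1b, related ubiquitin ligases of the Neuralized type, went in opposite directions. Neurl1a rose from 1.41 to 5.50 FPKM (log2 difference 1.39 ± 0.19, adjusted P = 5.96e-04) and Neurl1b fell from 9.29 to 5.21 FPKM (-0.74 ± 0.17, adjusted P = 0.0105). The Deltex genes Dtx3l and Dtx4 rose from 11.5 to 22.2 and from 6.32 to 10.6 FPKM. In the list of the nuclear complex, 1 of 10 was called, the corepressor gene Hdac1, which rose from 55.2 to 74.1 FPKM (log2 difference 0.41 ± 0.10, adjusted P = 0.0154). Rbpj itself was at 10.4 FPKM in Control and 12.8 FPKM in Model mice (adjusted P = 0.149).

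Genes of the list of other targets moved in both directions. The list was drawn up by name, and whether Notch acts on each of its genes in this tissue was not tested. Of 7 tested, Hes6, Hey1 and Sox9 were called higher and Nrarp lower. Hes6, a relative of Hes1 that is known to oppose it, rose from 41.6 to 113 FPKM (log2 difference 1.39 ± 0.19, adjusted P = 6.15e-04). Hey1, a target in vessels, rose from 1.10 to 2.41 FPKM (0.67 ± 0.21, adjusted P = 0.0380). Sox9, a factor of crypt progenitors, rose from 20.04 to 28.7 FPKM (adjusted P = 0.0393). Nrarp, a target whose product feeds back on Notch, fell from 12.9 to 9.11 FPKM (-0.46 ± 0.14, adjusted P = 0.0331), and its groups did not overlap.

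Of the 8 secretory fate factors tested, 1 was called higher and 1 lower. Sox4, a factor linked to tuft and endocrine cells, rose from 10.7 to 69.4 FPKM (log2 difference 2.55 ± 0.22, adjusted P = 2.93e-05), and Klf4, a factor of mature goblet and surface cells, fell from 241 to 98.6 FPKM (-1.32 ± 0.20, adjusted P = 0.00128). Spdef, the goblet factor that acts after Atoh1, was at 4.84 and 5.38 FPKM (adjusted P = 0.623). Without Control mice 17 and 50 its Control mean was 6.51 ± 0.337 FPKM (SD, n = 3), above the Model mean.

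**Figure D3:**
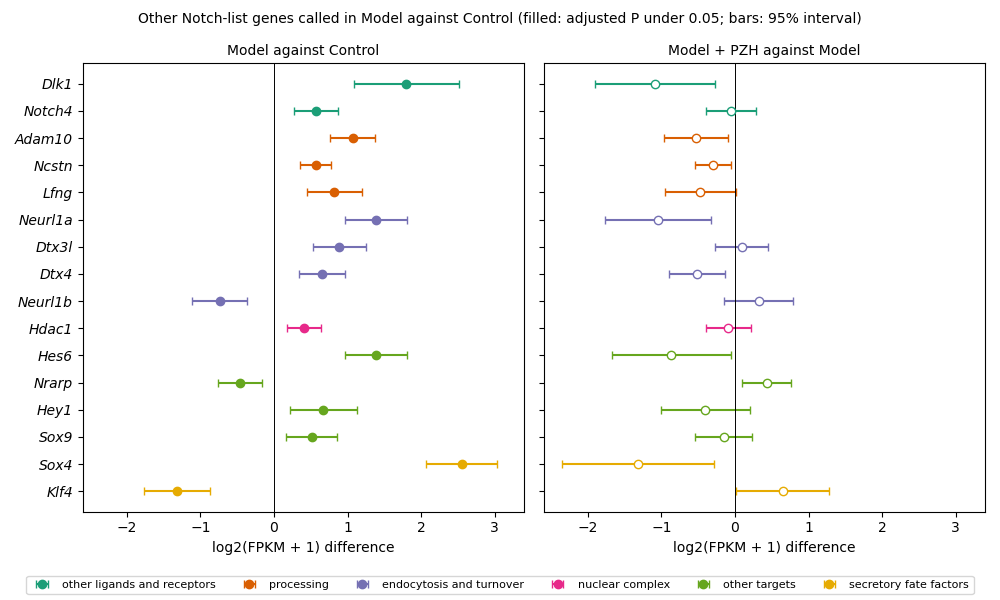
Log2(FPKM + 1) differences (x axis) with 95% intervals of the 16 further genes (y axis, coloured by list) that were called in Model against Control, for that comparison (left) and for Model + PZH against Model (right), which share the Model mice. Filled points had an adjusted P under 0.05, which no point on the right had. Dlk1, which passed the filter through Model mice alone, Neurl1a, Hes6 and Sox4 lie farthest to the right in the left panel, and Klf4 farthest to the left.

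Cell type markers also differed between these groups, in which 23.6% of all genes tested were called. The 6 Paneth-type markers summed to 1458 to 4986 FPKM in Model mice against 6.87 to 55.2 in Control mice, where Mmp7, Defa17 and Defa24 were listed at 0 in all 5 mice. The 8 neutrophil markers summed to 101 to 544 against 0.351 to 41.3 FPKM. Control mice 17 and 50 had 41.3 and 37.9 FPKM, and the other 3 Control mice 0.351 to 1.53. Over all Control mice the means of S100a8, S100a9 and Ltf were 5.66, 5.47 and 4.62 FPKM. Those of the other neutrophil markers were at most 0.295 FPKM. Which cells held these transcripts was not tested. No calls are counted for these lists, since 3 Paneth-type markers and 1 neutrophil marker passed the filter through Model mice alone. Of 8 absorptive colonocyte markers 6 were called lower, with sums of 520 to 1577 FPKM against 3327 to 4344. Smooth muscle markers were lower in 6 of 7 (1001 to 1743 against 2250 to 5193). Goblet markers, the cells that Atoh1 specifies, had 1 of 8 called, higher (5261 to 9150 against 3843 to 8973). Control mice 17 and 50, in which Atoh1 was low, had the lowest goblet sums of their group (4438 and 3843 FPKM), whereas the other 3 Control mice had 8503 to 8973 FPKM, above 4 of 5 Model mice. Cycling cell markers had none of 5 (74.5 to 115 against 66.1 to 93.6), with none at an unadjusted P under 0.05 by limma either. Of the 8 enteroendocrine markers 1 was called, lower (200 to 338 against 232 to 478). Mice 17 and 50 again had the lowest Control sums (242 and 232 FPKM), and the other 3, at 394 to 478 FPKM, were above every Model mouse. Of the 6 tuft markers 1 was called, higher (20.4 to 41.8 against 16.9 to 23.4). The mean of Avil rose from 1.07 FPKM in Control to 9.31 FPKM in Model mice. Those of Dclk1 and Ptgs1 were slightly higher in Model mice, and those of Trpm5, Alox5 and Hpgds slightly lower. Of blood cell markers, 2 of 5 for B cells, 4 of 6 for T cells and 3 of 5 for macrophages were called higher. Of the other lists, 3 of 9 colon epithelium markers were called lower, 2 of 6 fibroblast markers higher and 1 lower, and none of 6 squamous markers. The squamous sums of all Model mice (13.7 to 38.5 FPKM) were nonetheless above those of the 3 Control mice other than 17 and 50 (0.966 to 2.18). The part of such shifts in the Notch gene values was not tested.

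**Figure D4:**
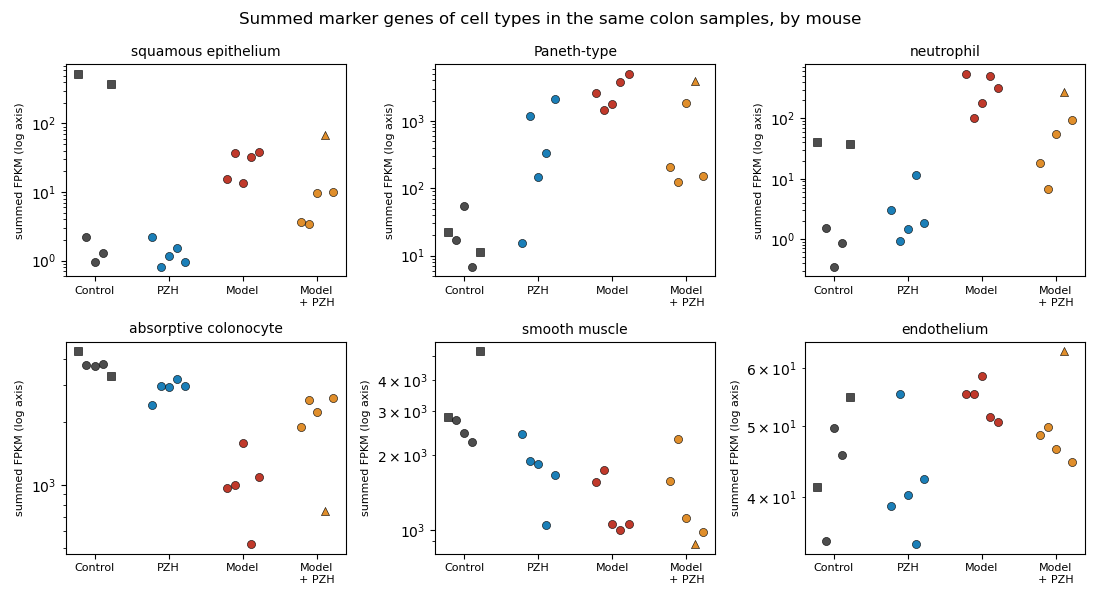
Summed FPKM (y axis, log scale) of 6 marker lists in every mouse of the 4 groups (x axis), with Model + PZH mouse 35 as a triangle and Control mice 17 and 50 as squares. The 2 squares are at 527 and 377 FPKM for squamous markers while the other 3 Control mice are at or below 2.18, and the triangle has the highest Paneth-type and neutrophil sums of its group.

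The second comparison asked what PZH did in mice without AOM/DSS. None of the 9 genes was called and none had an unadjusted P under 0.05 in limma, where 0.00645% and 8.84% of all 15506 genes did. Notch1 was at 4.39 to 7.64 FPKM in PZH mice, with a log2 difference from Control of 0.23 (95% interval -0.23 to 0.69, adjusted P = 0.759). Dll1 was at 4.10 to 6.97 FPKM (-0.27, 95% interval -0.68 to 0.13) and Hes1 at 40.4 to 60.0 FPKM (0.15, 95% interval -0.16 to 0.46). Atoh1 was at 23.5 to 35.8 FPKM, with 1 mouse just above the Control range, and its log2 difference was 0.37 (95% interval -0.22 to 0.97). Without Control mice 17 and 50 the direction turned, at -0.07 (95% interval -0.42 to 0.29, adjusted P = 0.943). The difference of Notch1 was then 0.0088 (95% interval -0.47 to 0.49), and still none of the 9 genes was called or had an unadjusted P under 0.05, where 0.00662% and 7.03% of all genes did by limma. The interval of Gfi1 was wider still (-0.62 to 1.91), with PZH mouse 8 at 0.0957 FPKM and the other 4 PZH mice at 3.57 to 7.38 FPKM. Notch2, Dll4, Jag1 and Jag2 had log2 differences of 0.11, 0.21, 0.07 and -0.12. Of the 56 further pathway genes tested, none was called, and 1 was higher and 2 were lower at an unadjusted P under 0.05, which 8.84% of all genes had. These were Adam10 (log2 difference 0.28), Dtx2 (-0.33) and Klf4 (-0.32), named here after their values were seen.

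The third comparison asked whether PZH changed these genes in mice given AOM/DSS. None of the 9 genes was called by limma, where 0.00629% of 15888 genes were, and 2 had an unadjusted P under 0.05, beside 11.7% of all genes. Notch1 was at 4.48, 7.12, 8.10, 8.82 and 11.4 FPKM in Model + PZH mice. All but mouse 35 were below every Model mouse. The log2 difference from Model was -0.46 (95% interval -0.91 to -0.01, adjusted P = 0.421). Dll1 was at 4.71, 4.75, 4.96, 6.51 and 6.97 FPKM, above all Model mice, with a log2 difference of 0.42 (95% interval 0.08 to 0.75, adjusted P = 0.363). It was the single member whose groups did not overlap, where 1.08% of all genes had groups apart.

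Notch2 was at 3.39, 3.56, 4.26, 4.31 and 6.49 FPKM in Model + PZH mice, with mouse 35 highest and the other 4 below every Model mouse (log2 difference -0.35, 95% interval -0.70 to 0.01). Dll4 was spread from 0.548 to 7.48 FPKM, with 1.13, 1.98 and 3.59 FPKM between, so that mouse 35 was above all Model mice and mouse 2 was the lowest of all 20. Jag2 was at 1.26, 2.06, 2.45, 3.35 and 4.92 FPKM, again with mouse 35 highest. Their intervals of -1.82 to 0.11 and -0.999 to 0.11 included 0.

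Jag1 was at 3.79, 4.24, 4.63, 4.66 and 5.14 FPKM, and 4 of these mice were above every Model mouse (log2 difference 0.65, 95% interval -0.07 to 1.36). Without Model mouse 44, at 0.341 FPKM, the log2 difference of Jag1 was 0.30. Atoh1 was at 16.5, 22.9, 25.6, 34.8 and 36.05 FPKM, and 3 of these mice were above every Model mouse while mouse 35 was lowest (0.44, 95% interval -0.02 to 0.91). Hes1 was at 25.6, 32.8, 35.003, 47.6 and 50.03 FPKM, with 3 mice below every Model mouse (-0.28, 95% interval -0.68 to 0.11). Gfi1 was listed at 0 in mouse 15 and was at 1.95 to 3.08 FPKM in the other mice (-0.47, 95% interval -1.21 to 0.27).

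Mouse 35 thus had the highest Notch1, Notch2, Dll4 and Jag2 and the lowest Dll1, Jag1 and Atoh1 of its group. Its squamous (67.8 FPKM), Paneth-type (3944 FPKM) and neutrophil (275 FPKM) marker sums were also the highest of the group. No marker of the 15 lists was called between Model + PZH and Model mice. At an unadjusted P under 0.05, 4 of 8 absorptive colonocyte markers were higher and none lower, beside 11.7% of all genes by limma. Their sums were 753 to 2590 FPKM in Model + PZH mice. Paneth-type and neutrophil markers summed to 123 to 3944 and 6.79 to 275 FPKM in these mice. No counts are given for those lists, since Model mice alone can bring a gene past the filter. The part of these marker differences in the Notch gene values was not tested. Without mouse 35, a choice made after its values were seen, none of the 9 genes was called, where 5.17% of 15639 genes were (808 instead of 1). At an unadjusted P under 0.05 there were then 6 of 9, beside 21.7% of all genes. They were Notch1 (log2 difference -0.59, adjusted P = 0.104), Notch2 (-0.47, adjusted P = 0.0660), Dll1 (0.46, adjusted P = 0.126), Dll4 (-1.20, adjusted P = 0.0842), Jag2 (-0.62, adjusted P = 0.130) and Atoh1 (0.60, adjusted P = 0.0831). Notch1, Notch2, Dll1 and Jag1 did not overlap with Model mice in the remaining 4 mice, as 10.9% of all genes did not. The mean of these 4 mice was 7.13 ± 1.90 FPKM for Notch1, 3.88 ± 0.474 for Notch2, 5.80 ± 1.11 for Dll1 and 29.8 ± 6.56 for Atoh1.

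**Figure D5:**
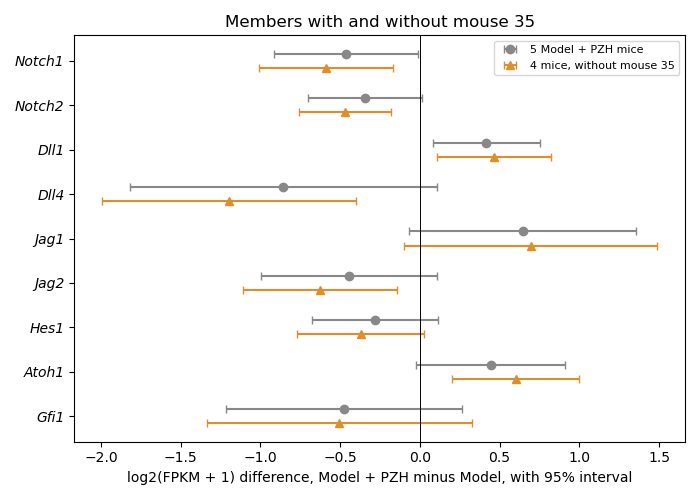
Log2(FPKM + 1) difference of Model + PZH minus Model mice (x axis) for the 9 genes (y axis), with 95% intervals, for all 5 Model + PZH mice (circles) and for the 4 mice without mouse 35 (triangles). Without that mouse the points of all 9 genes lie farther from 0, and the intervals of 6 genes exclude 0.

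Of the 56 further pathway genes tested in this comparison none was called by limma, and 4 were higher and 10 lower at an unadjusted P under 0.05. Over all genes 11.7% had one, 557 higher and 1305 lower, so that lower genes were also the more frequent there. Means of genes called in Model mice are set side by side here, since both comparisons use the Model mice. From Control to Model to Model + PZH mice, the mean of Sox4 was 10.7, 69.4 and 34.5 FPKM, that of Hes6 41.6, 113 and 69.9 FPKM, and that of Neurl1a 1.41, 5.50 and 2.40 FPKM. Adam10 was at 27.3, 58.1 and 41.5 FPKM, Nrarp at 12.9, 9.11 and 12.7 FPKM and Klf4 at 241, 98.6 and 159 FPKM. Dtx3l, at 11.5, 22.2 and 23.6 FPKM, and Notch4, at 3.06, 5.00 and 4.84 FPKM, had nearly the same means in both AOM/DSS groups. Hdac1 was at 55.2, 74.1 and 69.8 FPKM and Sox9 at 20.04, 28.7 and 26.2 FPKM. Ncstn was at 51.1, 75.9 and 62.0 FPKM, Lfng at 9.85, 18.3 and 13.2 and Dtx4 at 6.32, 10.6 and 7.15. Neurl1b was at 9.29, 5.21 and 6.83 FPKM, Hey1 at 1.10, 2.41 and 1.64 and Dlk1 at 0.200, 3.67 and 1.05. Mouse 35 weighed on several of these means. In the 4 Model + PZH mice without it, the mean was 19.7 FPKM for Sox4, 46.8 for Hes6, 1.5 for Neurl1a, 35.8 for Adam10, 13.5 for Nrarp and 178 for Klf4, whereas Dtx3l and Notch4 were at 23.8 and 4.44 FPKM.

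The fourth comparison set Model + PZH against PZH mice, that is, the AOM/DSS change among mice that all received PZH. None of the 9 genes was called by limma, where 2.42% of 15636 genes were. Hes1 alone had an unadjusted P under 0.05, beside 20.9% of all genes. Its levels of 40.4, 51.5, 56.9, 60.0 and 60.0 FPKM in PZH mice stood against 25.6 to 50.03 FPKM, and 3 of 5 Model + PZH mice were below every PZH mouse (log2 difference -0.51, 95% interval -0.92 to -0.09, adjusted P = 0.158). Notch1 had a log2 difference of 0.26 (95% interval -0.24 to 0.76), Notch2 of 0.19 (-0.17 to 0.55), Dll1 of 0.07 (-0.29 to 0.44) and Jag2 of 0.27 (-0.25 to 0.80). Jag1 had one of 0.24 (-0.03 to 0.50), with all Model + PZH mice but mouse 35 above every PZH mouse. Dll4 had one of -0.39 (-1.26 to 0.49), with mouse 35 above and 3 other mice below every PZH mouse. Without mouse 35, Hes1 (-0.60, adjusted P = 0.134), Dll4 (-0.73, adjusted P = 0.205) and Jag1 (0.29, adjusted P = 0.219) had an unadjusted P under 0.05, as 19.8% of all genes did. None of the 9 genes was then called, where 1.66% of all genes were. With all mice, in no member were the groups apart, as they were in 7.37% of all genes. Of 57 further pathway genes none was called, and 8 were higher and 2 lower at an unadjusted P under 0.05, beside the same 20.9% of all genes.

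The interaction compared the AOM/DSS change with PZH to that without it over all 20 mice. None of the 9 genes was called by limma, where 0.0129% of 15551 genes were. Those with an unadjusted P under 0.05, found for 9.63% of all genes, were Notch1 (-0.69 on the log2 scale, 95% interval -1.32 to -0.06), Dll1 (0.69, 0.19 to 1.19) and Dll4 (-1.07, -2.13 to -0.01). Their adjusted P were 0.489, 0.439 and 0.514. A different AOM/DSS change under PZH was thus not shown for any of the 9 genes. Without mouse 35 there were still none called, with 1.62% of all genes called, and Notch1, Notch2, Dll1, Dll4 and Hes1 had an unadjusted P under 0.05, as 15.4% of all genes did. The lowest adjusted P was then 0.103, for Dll4. Without Control mice 17 and 50 none was called either. The interaction of Atoh1, 0.07 with all mice, was then 0.51 (adjusted P = 0.633), and that of Notch1 was -0.47 (adjusted P = 0.672).

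Among mice of the same group, 12 relations between pairs of genes were tested over the 20 mice as deviations from the group mean, with permutation within groups (two-sided). None passed adjustment over the 12 pairs, and Pearson's r ranged from -0.29 to 0.49. The highest was that of Dll4 with Cdh5, an endothelial cadherin (r = 0.49, permutation P = 0.0387, adjusted P = 0.464; rho = 0.54, permutation P = 0.0265, adjusted P = 0.310), and without the 2 mice farthest from the median of Dll4 r was 0.30. Atoh1 and Gfi1 had r = 0.33 (permutation P = 0.239) and rho = 0.51 (permutation P = 0.0517, adjusted P = 0.310), and r = 0.43 without the 2 farthest mice. Atoh1 with Dll1 gave r = 0.43 and rho = 0.38 (permutation P = 0.120 and 0.171), and r fell to 0.28 without the 2 farthest mice. For Atoh1 with its repressor Hes1, r was -0.14 and rho -0.15 (permutation P = 0.604 and 0.591), and r was -0.23 without the 2 farthest mice. For Notch1 with Hes1, r was 0.18 and rho 0.25 (permutation P = 0.565 and 0.364), and r was -0.03 without the 2 farthest mice. Jag2 with the squamous keratin Krt5 gave r = 0.31 and rho = 0.36 (permutation P = 0.1099 and 0.125), and r was 0.18 without the 2 farthest mice. The other pairs, Atoh1 with Dll4 and Spdef, Jag1 with Hes1 and Myh11 and Gfi1 with Cd79a and S100a8, had adjusted P of 0.470 or more for both measures.

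Genes whose levels followed the members most closely over the 20 mice are given as a description, from 13737 genes with at least 1 FPKM in at least 10 mice. All points share the 4 groups, so r of the deviations from group means stands in brackets. Atoh1 was closest to Foxd2 (r = 0.91 [0.89]), Hpd (0.89 [0.88]) and Creb3l1, a factor of secretory cells (0.88 [0.88]). Its values within groups followed these genes as closely as those over all mice. Control mouse 17 and Model + PZH mouse 35 lay farthest from the median of the Atoh1 deviations. No r of these closest genes was computed without them. Notch1 was closest to Atoh8 (0.89 [0.81]), Tmed6 (0.89 [0.73]) and Sh3bp2 (0.89 [0.85]), and Notch2 to Mras (0.92 [0.88]), Ptgfrn (0.91 [0.82]) and Sp4 (0.91 [0.78]). Jag2 was closest to Lrp12 (0.93 [0.88]), Mamld1 (0.92 [0.92]) and Lrp5, a Wnt co-receptor (0.91 [0.85]). Jag1 was closest to Pik3c2a (0.94 [0.93]), Cebpa and Prkaa2, and Hes1 to Tab1 (0.88 [0.86]), Dhodh and Esrp2, an epithelial splicing factor. The closest genes of Dll1 (Adap1, Spry2, Clint1; r up to 0.83), Dll4 (Slc39a1, Igfbp3, Hnrnpr; up to 0.80) and Gfi1 (Ptges, Leng1, 3110009E18Rik; up to 0.67) were less alike. Among the members themselves, the highest r within groups was 0.55, of Notch1 with Jag2, and the lowest -0.50, of Notch2 with Atoh1.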

How the data were processed

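RNA-seq of colon from 20 mice, 5 in each of the groups Control, PZH, Model and Model + PZH, was analysed from the files deposited by the authors. The deposited values are FPKM per transcript, without counts, which the authors made with HISAT2 (2.1.0) alignment to mm10 and StringTie (1.3.3b), after quality control with FastQC (0.11.5) and NGSQC (2.3.3). The authors' own tests were not used here.

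FPKM of 96032 Ensembl transcripts, of 118434 in the files, were summed per gene with GENCODE M21 (GRCm38). The 22252 assembled transcripts, which carry no gene name and held 12.1 to 14.8% of FPKM, and 150 transcripts missing from that release were left out. The smallest step of FPKM times length gave the depth, so no counting intervals are given. Comparisons of log2 values (pseudocount 1) used limma (3.58.1, under R 4.3.3; eBayes with intensity trend, only the groups compared, no covariates). Genes that reached 0.5 FPKM in 5 or more of 10 mice (10 of 20 for the interaction) were tested, with Benjamini-Hochberg adjustment over all of them. The fit was tested on simulated data. Relations between genes used 100000 permutations within groups (scipy 1.17.1). Promoter windows came from RefSeq.

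The 9 members and all gene lists were chosen with earlier results of these data known. Besides the members, the text names pathway genes with an adjusted P under 0.05 in any comparison, at most 5 per list by smallest P, the 3 genes most like each member, and markers by counts. A gene of the nuclear complex list is not reported here. Rbpj, Spdef, Hes5 and Olfm4 were added for their role, and Neurog3 after its values were seen. Mice carry no number shared between groups. Control mice 17 and 50 and Model + PZH mouse 35 were picked for extra fits once values were known. Alternatives were a pseudocount of 0.1, no filter, at least 1 FPKM in every mouse, median-of-ratios scaling, all 20 mice in 1 fit, the most abundant transcript, no intensity trend and leaving out each mouse.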

Additional observations from a re-analysis of the deposited data

Results flagged for a closer look

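In the groups of 5 mice, the lowest or highest mouse was set apart from the rest by a gap of over 0.71 of the group's range (Dixon's test) in 11 of the 100 sets of values examined, which covered the 9 genes and the 16 further pathway genes named above. For independent values with a normal spread, chance gives about 1 in 20. These sets share the same mice and hold FPKM on a linear scale, so the 11 of 100 cannot be tested against that share. The lowest mouse stood apart for Jag1 in Model mouse 44 (0.341 FPKM, next 2.95) and Jag2 in PZH mouse 8 (1.281 FPKM, next 2.04). In Model + PZH mouse 35, 6 genes stood apart as the highest of the group, namely Neurl1a (6.02 FPKM, next 1.98), Dtx4 (10.46 FPKM, next 6.57), Hes6 (162 FPKM, next 53.9), Sox9 (40.3 FPKM, next 24.4), Lfng (22.2 FPKM, next 12.1) and Sox4 (93.6 FPKM, next 27.9). These genes were named for their change in Model mice, and in this mouse each lay in the direction of that change. The other 3 were Dtx4 in Model mouse 44 (14.2 FPKM, next 10.2), Dlk1 in Model + PZH mouse 15 (2.48 FPKM, next 0.856) and Nrarp in Control mouse 48 (16.5 FPKM, next 12.5). No member differed between groups by the interaction after adjustment.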

How the results depend on the processing

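The numbers of members called kept within the same range under the alternatives, apart from Model against Control, where leaving out single mice gave 2 to 5 of the 9 genes instead of 4. It gave 2 without Control mouse 48, Model mouse 44 or Model mouse 52. In the other comparisons and the interaction the number was 0 under each alternative run. For single members, 840 values kept their direction and side of the threshold, 11 were no longer past it, 2 were newly past it and 9 changed sign. None of the values that changed sign was past the threshold. For PZH against Control, Notch2 was at -0.12 with the most abundant transcript, Atoh1 at -0.067 without Control mice 17 and 50, and Jag1 ranged from -0.056 to 0.15 when single mice were left out. For Model against Control, Jag1 ranged from -0.47 to 0.0016 in the same way, and the interaction of Atoh1 from -0.082 to 0.29. With at least 1 FPKM required in every mouse, Dll4, Jag1 or Gfi1 could not be tested in some comparisons. Over all genes, the number called in Model + PZH against PZH, 378, was 90 without a filter, 1002 with all 20 mice in 1 fit and 155 with the most abundant transcript, and in Model + PZH against Model it was 89 instead of 1 with all 20 mice in 1 fit. The absolute depth is uncertain, and gene levels, near 0 or not, may miss fragments given to assembled transcripts. No paired analysis was possible because no mouse number is shared between groups.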
